A study of Homo sapiens with 12 samples.

Results

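The genes described are 9 enzymes of fatty acid synthesis, elongation and desaturation: ACLY, ACACA, ACSS2, FASN, SCD, ELOVL5, ELOVL6, FADS1 and FADS2. They were chosen by name, for the pathway they encode, with earlier results of these data known. They make up 9 of the 27412 genes with counts and 9 of the 14950 genes tested. The 12 RNA-seq libraries, in 4 groups of 3, come from MDA-MB-231, an established human line of breast cancer cells that lack hormone receptors and HER2 amplification. The groups were cells given 2 µM BITC and 1 µM ZA together (BITC+ZA), 1 µM ZA, 2 µM BITC, or the vehicle of DMSO and water, each for 24 h. The labels give the compounds as abbreviations, which were read from knowledge of the study as benzyl isothiocyanate, an electrophile from cruciferous plants, and zoledronic acid, a bisphosphonate that blocks farnesyl diphosphate synthase in the mevalonate pathway. Every group is the same cell line, grown in dishes plated in triplicate. Nothing else says that the libraries of a group are separate cultures, so the p-values measure only the spread between these libraries, which may be technical.

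Cells build fatty acids from acetyl-CoA, which ATP citrate lyase (ACLY) makes from citrate and acyl-CoA synthetase short chain family member ACSS2 makes from acetate. Acetyl-CoA carboxylase (ACACA) turns it into malonyl-CoA in the committed step, and fatty acid synthase (FASN) assembles palmitate. Stearoyl-CoA desaturase (SCD) puts a double bond into saturated chains, ELOVL6 lengthens palmitate, and FADS1, FADS2 and ELOVL5 desaturate and lengthen polyunsaturated chains. Many of these genes are textbook targets of the sterol regulatory element-binding proteins encoded by SREBF1 and SREBF2, and tumor cells are known for high activity of this pathway.

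ACLY (ENSG00000131473) lies on the minus strand at chr17:41866908-41930542, ACACA (ENSG00000278540) on the minus strand at chr17:37084988-37406818, and FASN (ENSG00000169710) on the minus strand at chr17:82078333-82098332, in the GRCh38 coordinates of the deposited tables. ACSS2 (ENSG00000131069) lies on the plus strand at chr20:34872146-34927962 and SCD (ENSG00000099194) on the plus strand at chr10:100347124-100364834. ELOVL5 (ENSG00000012660) lies on the minus strand at chr6:53267398-53349179 and ELOVL6 (ENSG00000170522) on the minus strand at chr4:110045846-110199199. FADS1 (ENSG00000149485) lies on the minus strand at chr11:61799625-61829318, within the span of FADS2 (ENSG00000134824) on the plus strand at chr11:61792980-61867354, which also overlaps FEN1. ACSS2 overlaps GGT7 on the other strand, and the span of ACACA holds several small genes. The sources used here do not give the strand setting of the counting, so reads shared by overlapping genes cannot be told apart. GC content, taken from the longest GENCODE 29 transcript, was 65.3% in FASN, 58.6% in FADS2, 54.6% in ACSS2, 52.2% in ACLY, 50.1% in FADS1, 48.7% in ACACA, 47.1% in SCD, 41.7% in ELOVL5 and 41.2% in ELOVL6, against a median of 48.2% over the genes tested.

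Promoter windows of 300 bases around an annotated start were taken from RefSeq on GRCh38.p14 and held 8 of the 9 genes. FASN had no window and was not searched. The motif CCAAT, bound by nuclear factor Y, was found on either strand in a window of 6 of these 8 genes (ACLY, ACACA, ACSS2, SCD, ELOVL5 and FADS2), against 34.6% of 35116 promoter windows. GGGCGG, the core of an Sp1 site, was found in 7 of the 8 and in 45% of all windows. The E-box CACGTG was found in ELOVL5 alone, against 7.26% of all windows, and the sterol regulatory element form TCACNCCAC in none of the 8, against 1.13% of all windows. ACACA has 3 windows, and ACLY, ACSS2 and FADS2 have 2 each, so these genes had more chances of a match. A match describes the letters only, and the search covered both strands. Windows are printed for SCD, the gene most often called, for ACLY, whose pair of CCAAT motifs stands in opposite orientations, and for ELOVL5, which was called in no comparison. Each runs 5′ to 3′ on its gene's strand, with CCAAT, or ATTGG where it is on the other strand, in capitals.
SCD, chr10:100346983-100347282, plus strand: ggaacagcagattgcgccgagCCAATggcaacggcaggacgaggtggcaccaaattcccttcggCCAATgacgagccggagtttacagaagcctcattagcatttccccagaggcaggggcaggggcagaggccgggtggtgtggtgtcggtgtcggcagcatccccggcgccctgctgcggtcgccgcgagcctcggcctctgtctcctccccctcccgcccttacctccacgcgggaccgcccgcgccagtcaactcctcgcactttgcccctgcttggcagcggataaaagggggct
ACLY, chr17:41918973-41919272, minus strand: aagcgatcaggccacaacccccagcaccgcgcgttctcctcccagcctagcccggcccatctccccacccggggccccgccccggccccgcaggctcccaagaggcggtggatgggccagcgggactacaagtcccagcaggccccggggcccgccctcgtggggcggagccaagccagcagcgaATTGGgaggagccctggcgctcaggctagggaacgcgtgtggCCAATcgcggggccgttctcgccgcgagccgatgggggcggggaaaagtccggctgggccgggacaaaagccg
ELOVL5, chr6:53348901-53349200, minus strand: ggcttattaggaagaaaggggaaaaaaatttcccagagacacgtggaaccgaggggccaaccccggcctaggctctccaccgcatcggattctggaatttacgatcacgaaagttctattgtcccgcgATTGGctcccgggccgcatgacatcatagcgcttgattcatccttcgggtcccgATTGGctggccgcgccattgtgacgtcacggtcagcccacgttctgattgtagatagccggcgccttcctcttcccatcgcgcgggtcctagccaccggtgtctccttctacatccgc
In SCD the 2 motifs begin 229 and 186 bases before the start, in ACLY 65 and 23 bases before it, and in ELOVL5 122 and 68 bases before it.

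Totals ran from 15874857 to 17375664 counts, and the 9 genes had 664 to 9792 counts per library. ZA library 1 stood apart: the chi-square per gene against ZA libraries 2 and 3 was 18.3 and 16.4, and 2.34 to 4.17 for the other pairs of replicates, over 10368 genes. Deviations of a library from the mean of all libraries followed GC content, with a rank correlation across genes of 0.215 to 0.339 in BITC+ZA, −0.376 in ZA library 1, 0.407 and 0.427 in ZA libraries 2 and 3, −0.435 to −0.135 in BITC and −0.208 to −0.0123 in vehicle. Results are therefore given with and without ZA library 1, and with an offset that removes each library's trend on GC content and gene length. Mitochondrially encoded protein genes took 4.47% ± 0.0809 of the counts in BITC+ZA, 3.91% ± 0.566 in ZA, 3.64% ± 0.133 in BITC and 3.27% ± 0.0555 in vehicle (SD, n = 3). Within ZA, library 1 had 4.57% and libraries 2 and 3 had 3.57 and 3.61%. The part of this share in the results was not tested. Among markers of the line, in CPM scaled to the plain library total, VIM, CD44 and AXL each had at least 885 CPM in every library, whereas SPARC had 0.592 to 1.56 CPM. Of the markers expected to be low, ESR1 reached 0.125 CPM and CDH1 0.895 CPM, and PGR was listed at 0 FPKM. The others on that list were higher, GATA3 with 15.9 to 19.2 CPM and ERBB2 with 76.2 to 104 CPM. Markers of adipocytes, immune and endothelial cells summed to at most 0.433, 0.31 and 0.693 CPM in a library.

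Compared per length, in FPKM (fragments scaled to gene length and library size), the 9 genes formed a high and a low set. In vehicle SCD was highest with 93.8 ± 2.33 FPKM, followed by ELOVL5 with 83.1 ± 1.4, ACLY with 82.1 ± 0.524 and FASN with 56.8 ± 0.85 FPKM (SD, n = 3). ELOVL6 had 22.3 ± 0.5, FADS1 15.5 ± 0.367, FADS2 13.8 ± 0.426, ACACA 11.1 ± 0.34 and ACSS2 8.07 ± 0.541 FPKM. Neighbours in this order did not overlap over the vehicle libraries, except ELOVL5 and ACLY. ACACA, which encodes the committed step, thus stood second from last. Over all 12 libraries 440 tested genes lay above SCD, 762 above FASN and 4690 above ACACA in mean FPKM. The order changed at the top: SCD was first in ZA, while in BITC ELOVL5 led with 84.2 ± 1.54 FPKM, and ACLY (73.9 ± 0.826) and SCD (73.1 ± 2.18) overlapped behind it. In BITC+ZA the ranges of ELOVL5 (79.1 ± 2.83), SCD (78.8 ± 2.86) and ACLY (77.6 ± 0.864) overlapped. FADS1 and FADS2 overlapped in ZA (14.4 ± 0.22 and 14 ± 0.403 FPKM) and in no other group.

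**Figure D1:**
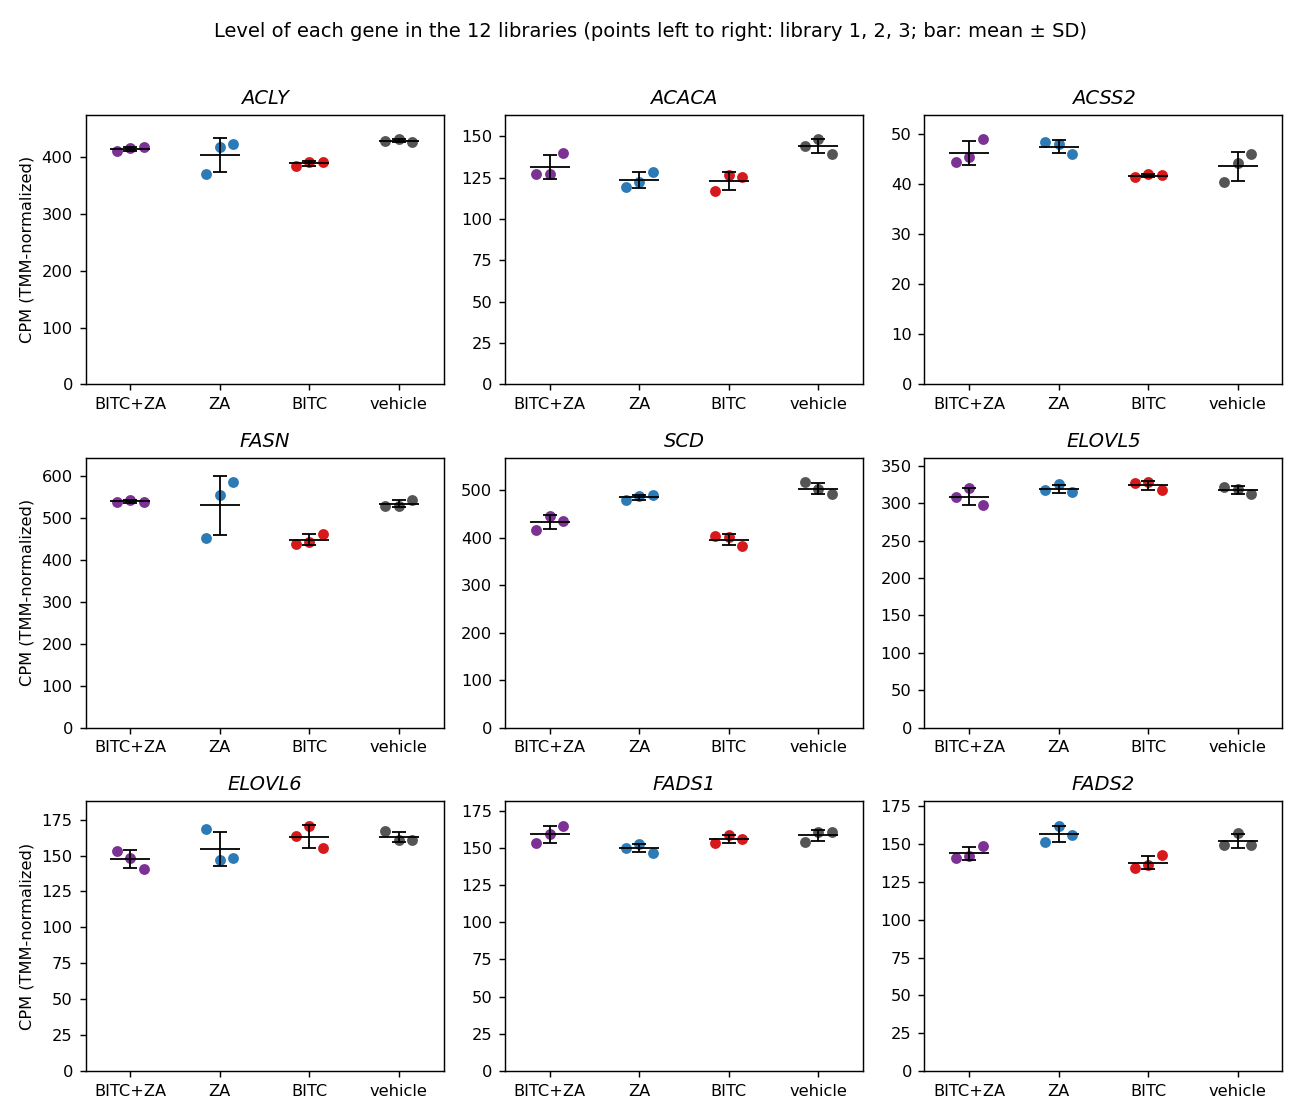
Level of each of the 9 genes in CPM (y axis, from 0) in BITC+ZA, ZA, BITC and vehicle (x axis), 1 point per library with the mean ± SD of 3 libraries. SCD lies at 395 CPM in BITC and 504 CPM in vehicle on average, and FASN in ZA is spread from 451 to 584 CPM.

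The comparison of each treatment with vehicle asked which of these transcripts each compound, and both together, moved. Under BITC, SCD fell by 21.5%, FASN fell by 16.1% and ACACA fell by 14.6%. Under ZA ACACA was the 1 member called and fell by 14.3%, and under BITC+ZA SCD was the 1 member called and fell by 14.1%. No member was called higher against vehicle in any of the 3 comparisons. A gene was called where edgeR's quasi-likelihood test gave a Benjamini-Hochberg adjusted p below 0.05 over all genes tested, and levels are TMM-normalized CPM. All changes were small: over the 27 values the log2 fold change lay between −0.35 and 0.12.

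For BITC against vehicle 3 of the 9 were called and 1.78% of all genes tested, and 7 of 9 values lay below 0. Their median log2 fold change was −0.14, against 0.00149 over all genes tested. In 5 of the 9 (ACLY, ACACA, FASN, SCD and FADS2) every BITC library lay below every vehicle library, and groups did not overlap in 25.2% of all genes. Leaving out ZA library 1, which enters through the spread shared by all groups, raised the number to 5, with ACLY (adjusted p = 0.00115) and FADS2 (0.0134), and 9.79% of all genes. With the GC and length offset 4 were called, ACLY (−0.11, adjusted p = 0.0402), ACACA, FASN and SCD, and 4.05% of all genes.

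For ZA against vehicle 1 of the 9 was called and 1.06% of all genes. The median was −0.05, against 0.0157 over all genes, and the groups did not overlap in 4 members (ACLY, ACACA, SCD and FADS1, each lower) and in 16.4% of all genes. With ZA library 1 left out, ACACA and ELOVL6 (−0.14, adjusted p = 0.0289) were called, both lower, and 16.3% of all genes. With the offset 0 of the 9 were called, 2 had an unadjusted p below 0.05, and 2.26% of all genes were called.

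For BITC+ZA against vehicle 1 of the 9 was called and 4.9% of all genes. The median was −0.05, against −0.00105 over all genes, and the groups did not overlap in 4 members (ACLY, SCD, ELOVL6 and FADS2, each lower) and in 32.8% of all genes. Leaving out ZA library 1 gave 3 called members, SCD, ACACA (−0.14, adjusted p = 0.0242) and ELOVL6 (−0.15, adjusted p = 0.00926), all lower, and 14.6% of all genes. With the offset 4 were called lower, ACLY (−0.1, adjusted p = 0.043), ACACA (−0.14, 0.019), SCD and FADS2 (−0.17, 0.00537), and 9.96% of all genes.

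**Figure D2:**
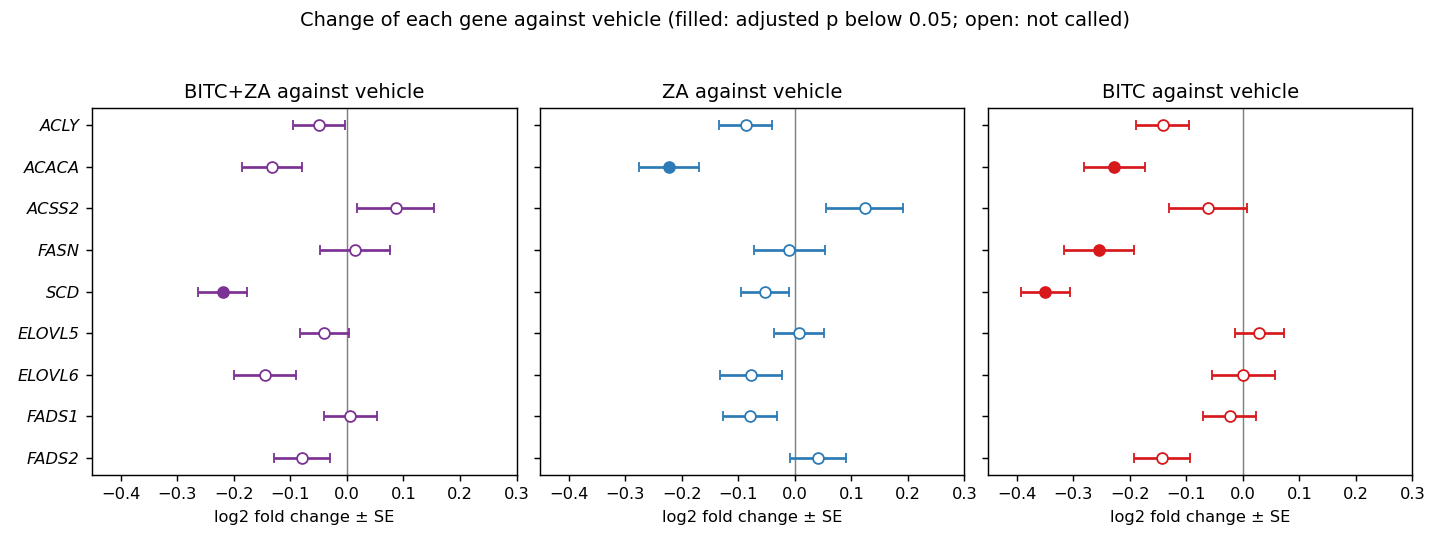
Log2 fold change with its SE (x axis) of each gene (rows) in BITC+ZA, ZA and BITC, each against vehicle, with filled points for an adjusted p below 0.05. SCD stands at −0.22 in BITC+ZA, −0.05 in ZA and −0.35 in BITC.

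Of the genes that supply acetyl-CoA, ACLY had 411, 416 and 417 CPM in BITC+ZA, 370, 418 and 423 in ZA, 384, 391 and 391 in BITC, and 429, 432 and 427 in vehicle. Each treated library lay below each vehicle library, and ZA library 1 lay below all others. The log2 fold change against vehicle was −0.05 (SE 0.05, adjusted p = 0.589) in BITC+ZA, −0.09 (SE 0.05, adjusted p = 0.388) in ZA and −0.14 (SE 0.05, adjusted p = 0.13) in BITC. None of the 3 passed, and a p above the threshold does not show that the levels were alike.

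ACSS2 had 44.4, 45.3 and 49.0 CPM in BITC+ZA, 48.3, 48.0 and 46.0 in ZA, 41.4, 41.9 and 41.8 in BITC, and 40.3, 44.2 and 46.1 in vehicle. The vehicle libraries overlapped with every treated group. It was called in no comparison. Its log2 fold change was 0.09 (SE 0.07, adjusted p = 0.5) in BITC+ZA, 0.12 (SE 0.07, adjusted p = 0.405) in ZA and −0.06 (SE 0.07, adjusted p = 0.71) in BITC, each against vehicle.

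ACACA, the carboxylase of the committed step, had 127, 127 and 140 CPM in BITC+ZA, 119, 122 and 129 in ZA, 117, 127 and 125 in BITC, and 144, 148 and 139 in vehicle. Every ZA and every BITC library lay below every vehicle library, and BITC+ZA overlapped with vehicle by 1 library. ACACA fell under BITC (−0.23, SE 0.05, adjusted p = 0.0227) and under ZA (−0.22, SE 0.05, adjusted p = 0.0372). In BITC+ZA the log2 fold change was −0.13 (SE 0.05, adjusted p = 0.154). With the offset the changes were −0.18 (adjusted p = 0.00515) under BITC and −0.13 (adjusted p = 0.091) under ZA.

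These calls of ACACA were sensitive to single libraries. The BITC call ended without vehicle library 1, 2 or 3 (adjusted p = 0.101, 0.156 and 0.052) or without BITC library 1 or 2 (0.178 and 0.0574). The ZA call ended without vehicle library 1, 2 or 3 (0.196, 0.159 and 0.106), BITC library 1 or 2 (0.0537 and 0.0513), ZA library 2 (0.167), or BITC+ZA library 1, 2 or 3 (0.0572, 0.0607 and 0.052). It held without ZA library 1 (0.00281). The log2 fold change stayed below 0 in each of these fits.

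FASN, which assembles palmitate, had 537, 542 and 536 CPM in BITC+ZA, 451, 553 and 584 in ZA, 437, 441 and 462 in BITC, and 528, 528 and 542 in vehicle. BITC lay below vehicle and below BITC+ZA in every library, while BITC+ZA and vehicle overlapped. ZA library 1 lay among the BITC libraries and ZA libraries 2 and 3 above all other libraries, a range of 0.37 on the log2 scale, against 0.01 to 0.19 for every other gene and group described here.

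FASN fell under BITC against vehicle (−0.25, SE 0.06, adjusted p = 0.0341). In BITC+ZA the value was 0.01 (SE 0.06, adjusted p = 0.924) and in ZA −0.01 (SE 0.06, adjusted p = 0.966), or 0.1 (adjusted p = 0.052) without ZA library 1. The BITC call ended without any 1 of the vehicle libraries (adjusted p = 0.137, 0.147 and 0.174 for libraries 1, 2 and 3), the BITC libraries (0.212, 0.122 and 0.0805) or the BITC+ZA libraries (0.0713, 0.0699 and 0.0743), and reached 1.74e-08 without ZA library 1. With the GC and length offset the fall under BITC was −0.1 (adjusted p = 0.0423), against −0.25 as counted, and the call ended with the replicate block added to the offset (−0.1, adjusted p = 0.0576).

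SCD, the desaturase of saturated chains, had 417, 446 and 436 CPM in BITC+ZA, 480, 488 and 489 in ZA, 403, 401 and 382 in BITC, and 517, 503 and 492 in vehicle. The 4 groups did not overlap: BITC was lowest, then BITC+ZA, ZA and vehicle. SCD fell by 21.5% under BITC (log2 fold change −0.35, SE 0.04, adjusted p = 1.54e-05) and by 14.1% under BITC+ZA (−0.22, SE 0.04, adjusted p = 0.0027). Under ZA its value was −0.05 (SE 0.04, adjusted p = 0.609).

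Both SCD calls held with each of the 12 libraries left out in turn, where the adjusted p reached at most 0.000552 for BITC and 0.0313 for BITC+ZA. With the offset the values were −0.36 for BITC and −0.23 for BITC+ZA (adjusted p = 5.56e-11 and 2.14e-06). A bulk library cannot tell a lower level in every cell from fewer cells that hold the transcript.

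Of the elongases, ELOVL5 had 309, 320 and 297 CPM in BITC+ZA, 317, 325 and 315 in ZA, 326, 328 and 317 in BITC, and 322, 318 and 312 in vehicle. All treated groups overlapped with vehicle, and the log2 fold change was −0.04 in BITC+ZA, 0.01 in ZA and 0.03 in BITC (SE 0.04 each, adjusted p = 0.652, 0.962 and 0.794).

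ELOVL6 had 153, 148 and 141 CPM in BITC+ZA, 168, 147 and 148 in ZA, 163, 171 and 155 in BITC, and 167, 161 and 161 in vehicle. BITC+ZA lay below vehicle in every library, while ZA and BITC overlapped with vehicle. The log2 fold change of BITC+ZA was −0.14 (SE 0.06, adjusted p = 0.133), that of ZA −0.08 (SE 0.06, adjusted p = 0.549) and that of BITC 0.000854 (SE 0.06, adjusted p = 0.995).

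Of the polyunsaturated desaturases, FADS1 had 153, 159 and 165 CPM in BITC+ZA, 150, 153 and 147 in ZA, 153, 159 and 156 in BITC, and 154, 161 and 161 in vehicle. ZA lay below vehicle in every library and the other groups overlapped. The values against vehicle were 0.01 in BITC+ZA, −0.08 in ZA and −0.02 in BITC (SE 0.05 each, adjusted p = 0.964, 0.451 and 0.862).

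FADS2 had 141, 142 and 149 CPM in BITC+ZA, 152, 162 and 156 in ZA, 134, 136 and 143 in BITC, and 150, 158 and 149 in vehicle. BITC and BITC+ZA lay below vehicle in every library, BITC+ZA library 3 by the smallest margin, and ZA overlapped with vehicle. The log2 fold change was −0.08 (SE 0.05, adjusted p = 0.376) in BITC+ZA, 0.04 (SE 0.05, adjusted p = 0.748) in ZA and −0.14 (SE 0.05, adjusted p = 0.151) in BITC. The BITC value was −0.04 (adjusted p = 0.714) with the GC and length offset.

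The 9 genes summed to 2322 ± 27.4 CPM in BITC+ZA, 2370 ± 99.9 in ZA, 2176 ± 17.6 in BITC and 2444 ± 13.1 in vehicle (SD, n = 3). Every BITC library lay below all libraries of the other groups, every BITC+ZA library lay below every vehicle library, and ZA library 3 overlapped with vehicle.

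The comparison of BITC+ZA with BITC asked what ZA changed in cells that also had BITC. FASN and SCD were higher with both compounds, by 20.5 and 9.43%. Of the 9, 2 were called and 14.7% of all genes, the median log2 fold change was 0.09 against 0.00483 over all genes, and the groups did not overlap in 6 members (ACLY, ACACA, ACSS2, FASN and SCD higher, ELOVL6 lower) and in 38.1% of all genes. FASN rose by 0.27 (SE 0.06, adjusted p = 0.0086) and SCD by 0.13 (SE 0.04, adjusted p = 0.0431). ELOVL6 had −0.15 (SE 0.06, adjusted p = 0.0749), and the other members −0.07 to 0.15.

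The FASN call ended without BITC library 1 (adjusted p = 0.0669) and with the offset, where its value was 0.04 (adjusted p = 0.505). The SCD call held with the offset (0.13, adjusted p = 0.00526), but ended without vehicle library 1, 2 or 3 (0.0586, 0.0657 and 0.0602), BITC library 1, 2 or 3 (0.0928, 0.097 and 0.137) or BITC+ZA library 1, 2 or 3 (0.0553, 0.173 and 0.133). With ZA library 1 left out 4 members were called, ACLY (0.09, adjusted p = 0.0264), FASN and SCD higher and ELOVL6 (−0.15, adjusted p = 0.00512) lower, and 26.9% of all genes. With the offset 2 were called and 11.9% of all genes, SCD higher and FADS2 lower (−0.13, adjusted p = 0.0329, against 0.06 and 0.408 as counted).

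The comparison of BITC+ZA with ZA asked what BITC changed in cells that also had ZA. SCD was the member called and fell by 10.9% against ZA (−0.17, SE 0.04, adjusted p = 0.0191), beside 6.95% of all genes. The median of the 9 was −0.04, against −0.0104 over all genes, and the groups did not overlap in 3 members (SCD and FADS2 lower, FADS1 higher) and in 23.7% of all genes. The SCD call ended without BITC+ZA library 1 (adjusted p = 0.0964) or 3 (0.0725). FADS2 had −0.12 (SE 0.05, adjusted p = 0.143). Leaving out ZA library 1 gave 2 called members, SCD (−0.18) and FADS2 (−0.15, adjusted p = 0.0195), and 12.7% of all genes. With the offset SCD (−0.19, adjusted p = 7.22e-05) and FADS2 (−0.22, adjusted p = 0.000318) were called, both lower, and 12.4% of all genes.

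ZA and BITC were also set against each other. SCD, FASN and FADS2 were higher in ZA than in BITC, by 22.8, 18.5 and 13.6%. Of the 9, 3 were called and 10.5% of all genes, the median was 0.05 against 0.00146 over all genes, and the groups did not overlap in 4 members (ACSS2, SCD and FADS2 higher, FADS1 lower) and in 21.2% of all genes. The log2 fold change was 0.30 (SE 0.04, adjusted p = 0.000126) for SCD, 0.24 (SE 0.06, adjusted p = 0.0155) for FASN and 0.18 (SE 0.05, adjusted p = 0.0182) for FADS2. SCD held in every fit with a library left out, with an adjusted p of at most 0.00221.

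FASN overlapped between ZA and BITC through ZA library 1, and its call ended without BITC library 1 or 2 (0.0913 and 0.0746) or ZA library 2 or 3 (0.122 and 0.0982). The FADS2 call ended without BITC library 1 or 2 (0.0935 and 0.103) or ZA library 2 or 3 (0.108 and 0.0544). Without ZA library 1 the FASN value was 0.35, and 5 members were called (ACLY, FASN, SCD and FADS2 higher, ELOVL6 lower), with 29.6% of all genes. With the offset SCD (0.32, adjusted p = 2.76e-09) was the member called, beside 9.75% of all genes, while FASN had 0.05 (adjusted p = 0.362) and FADS2 0.09 (adjusted p = 0.215).

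The interaction asked whether the change under both compounds differed from the sum of the changes under each, on the log2 scale. ACACA changed less than the sum: the value in BITC+ZA was −0.13, against a sum of −0.45, a difference of 0.32 (SE 0.08, adjusted p = 0.0233). It was the 1 of the 9 called, beside 2.84% of all genes. FASN (0.28, SE 0.09, adjusted p = 0.0859), SCD (0.18, SE 0.06, adjusted p = 0.0983) and ACLY (0.18, SE 0.07, adjusted p = 0.131) had values of the same sign that did not pass. The median of the 9 was 0.11, against −0.00608 over all genes. These values share the vehicle libraries with the single comparisons and are no independent evidence beside them.

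The ACACA interaction ended as a call without vehicle library 1 or 2 (0.0693 and 0.0852), BITC library 1 (0.0989) or BITC+ZA library 3 (0.0996), and was 0.17 (adjusted p = 0.0875) with the GC and length offset. With ZA library 1 left out ACACA (0.29, adjusted p = 0.00289), FASN (0.17, 0.0207) and SCD (0.17, 0.0274) were called, and 5.59% of all genes. With the offset SCD (0.18, adjusted p = 0.0178) was the member called, and 5.11% of all genes.

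**Figure D3:**
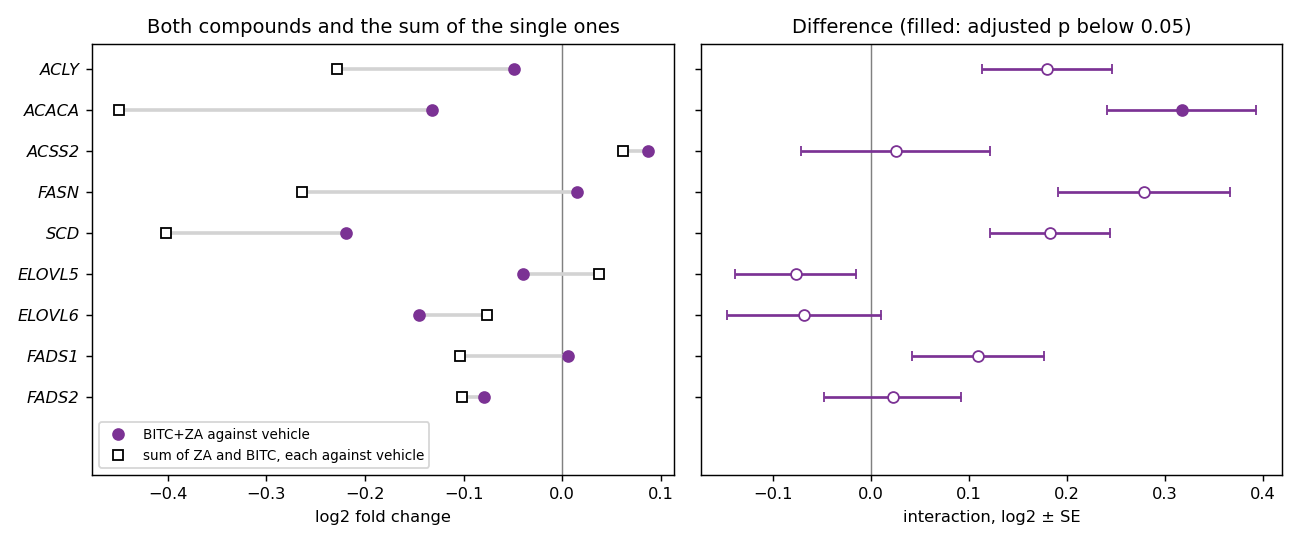
Left, the log2 fold change in BITC+ZA against vehicle (circles) beside the sum of the ZA and BITC changes (squares) for each gene; right, their difference with its SE, filled where the adjusted p was below 0.05. ACACA stands at −0.13 beside a sum of −0.45, a difference of 0.32.

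Ratios within a library do not depend on the library's total. SCD over FASN, in FPKM, was 1.36, 1.44 and 1.42 in BITC+ZA, 1.86, 1.54 and 1.46 in ZA, 1.61, 1.59 and 1.45 in BITC, and 1.71, 1.66 and 1.58 in vehicle. As counted, BITC+ZA lay below every library of the other 3 groups and ZA library 1 was highest, but the place of BITC+ZA below BITC did not hold with the GC and length offset. FADS1 over FADS2 was 1.17, 1.21 and 1.19 in BITC+ZA, 1.07, 1.02 and 1.02 in ZA, 1.23, 1.25 and 1.18 in BITC, and 1.11, 1.1 and 1.16 in vehicle. ZA was lowest and the ranges of all groups were apart, except those of BITC+ZA and BITC. ELOVL5 over ELOVL6 had means of 4.01 ± 0.144 in BITC+ZA, 3.96 ± 0.323 in ZA, 3.8 ± 0.124 in BITC and 3.72 ± 0.0581 in vehicle (SD, n = 3).

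In all, 18 comparisons of ratios were made by exact two-sided permutation tests, which cannot go below p = 0.1 with 3 libraries against 3. That smallest exact p was reached by 9 of them, with an adjusted value of 0.2, so no ratio passed. The largest differences were those of FADS1 over FADS2 in ZA against BITC (−0.24 on the log2 scale, SE 0.03), SCD over FASN in BITC+ZA against vehicle (−0.23, SE 0.04) and FADS1 over FADS2 in BITC+ZA against ZA (0.21, SE 0.03). GC content was 47.1% in SCD and 65.3% in FASN, and 50.1% in FADS1 and 58.6% in FADS2, which also overlap. ELOVL5 and ELOVL6 were close, with 41.7 and 41.2%. With the GC and length offset, a setting added after seeing the data and with no test, SCD over FASN in BITC+ZA against BITC changed sign, with 0.097, against −0.14 as counted, and so did FADS1 over FADS2 in that comparison (0.10, against −0.03) and SCD over FASN in ZA against vehicle (0.014, against −0.03). The order of the differences also changed: the largest were then SCD over FASN in ZA against BITC (0.27, against 0.06 as counted) and in BITC against vehicle (−0.26, against −0.10), while FADS1 over FADS2 in ZA against BITC had −0.12. FADS1 over FADS2 in BITC+ZA against ZA had 0.22, against 0.21 as counted.

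**Figure D4:**
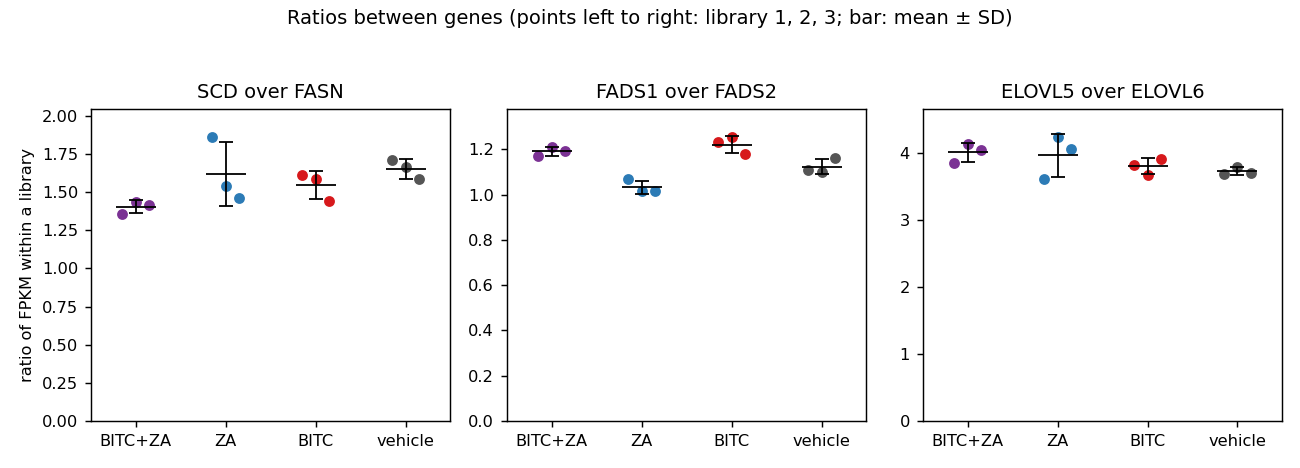
Ratio of FPKM within a library (y axis, from 0) for SCD over FASN, FADS1 over FADS2 and ELOVL5 over ELOVL6 in BITC+ZA, ZA, BITC and vehicle (x axis), 1 point per library with the mean ± SD. FADS1 over FADS2 averages 1.19, 1.03, 1.22 and 1.12 in that order.

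Other genes of the pathway were taken from 6 lists with 60 genes, of which 56 were tested. Against vehicle, 1 rose and 2 fell under BITC, 4 fell under BITC+ZA, and edgeR called 0 under ZA, where 6 had an unadjusted p below 0.05 and DESeq2 called 1. Over all genes tested the same comparisons called 4.9% in BITC+ZA, 1.06% in ZA and 1.78% in BITC. The median log2 fold change of the 56 was −0.04 in BITC+ZA, 0.03 in ZA and −0.05 in BITC, each against vehicle, and that of all genes −0.00105, 0.0157 and 0.00149. Of the 33 calls described next, 5 held with each library left out in turn: INSIG1, ME1, CYB5R3 and ACADVL in ZA against BITC, and NDUFAB1 in BITC+ZA against BITC. Under BITC, ME1, the malic enzyme that makes NADPH, rose to 59.5 ± 3.76 CPM, against 47.6 ± 1.43 CPM in vehicle (0.32, SE 0.07, adjusted p = 0.00665). SREBF2, the regulator best known for sterol synthesis genes, fell to 124 ± 5.78 CPM, against 145 ± 6.33 in vehicle (−0.22, SE 0.05, adjusted p = 0.0243). CPT1A, the gate of fatty acid oxidation, fell to 61.8 ± 0.482 CPM, against 75.3 ± 3.19 in vehicle (−0.28, SE 0.06, adjusted p = 0.015). These calls of ME1, SREBF2 and CPT1A ended in 3, 6 and 4 of the 12 fits with a library left out, and the SREBF2 call also with the offset (−0.14, adjusted p = 0.0516).

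In BITC+ZA against vehicle, CPT1A (−0.24, adjusted p = 0.0257), the long-chain acyl-CoA synthetase ACSL3 (−0.20, 0.0382), the NADPH-making isocitrate dehydrogenase IDH1 (−0.23, 0.0338) and the elongase ELOVL7 (−0.57, 0.028) fell. ELOVL7, at 4.64 ± 0.116 CPM in BITC+ZA and 6.89 ± 0.876 in vehicle, showed the largest change of the 4. Each of these calls ended in 4 to 7 of the 12 fits with a library left out. IDH1 had 56 ± 2.11 CPM in BITC+ZA, 65.5 ± 4.28 in ZA, 64.9 ± 2.91 in BITC and 65.6 ± 1.49 in vehicle, and was also lower in BITC+ZA than in BITC (−0.21, adjusted p = 0.025) and ZA (−0.22, adjusted p = 0.029).

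Between ZA and BITC, 10 of the 56 were higher and 2 lower in ZA, beside 913 higher and 664 lower of 14950 genes tested, or 10.5% called. The median of the 56 was 0.09, against 0.00146 over all genes. The regulators SREBF1 (0.22, SE 0.06, adjusted p = 0.0138), SREBF2 (0.17, SE 0.05, adjusted p = 0.0361) and INSIG1, which retains their precursors and is itself a known target (0.22, SE 0.05, adjusted p = 0.00738), were among the higher ones. SREBF1 had 219 ± 18.2 CPM in ZA and 189 ± 10.4 in BITC, and INSIG1 159 ± 5.92 in ZA and 136 ± 5.34 in BITC. The INSIG1 call held with each library left out, while those of SREBF1 and SREBF2 ended in 4 and 9 of 12 fits and with the GC and length offset (0.05 and 0.07, adjusted p = 0.499 and 0.309). Also higher were the citrate carrier SLC25A1 (0.28, adjusted p = 0.0145), the desaturase-like gene FADS3 (0.27, 0.00536), the cytochrome b5 reductase CYB5R3 (0.29, 0.00472), AGPAT2 (0.34, 0.00619) and ACSL5 (0.18, 0.0293) of glycerolipid synthesis and acyl-CoA activation, and the oxidation genes CPT1A (0.21, 0.0311) and ACADVL (0.47, 0.000678). ME1 (−0.32, adjusted p = 0.00381) and the protease gene MBTPS2, whose product helps to release active sterol regulatory element-binding proteins (−0.23, 0.0251), were lower. SLC25A1, AGPAT2 and MBTPS2 were not called with the offset (0.04, 0.1 and −0.14, adjusted p = 0.655, 0.249 and 0.131), and CYB5R3 and FADS3 had smaller values there (0.14 and 0.17, adjusted p = 0.0106 and 0.0111).

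In BITC+ZA against BITC, 5 of the 56 were higher and 5 lower, a share near the 14.7% of all genes called. The median of the 56 was 0.0071, against 0.00483 over all genes. ACACB, the isozyme of ACACA found at mitochondria (0.49, SE 0.15, adjusted p = 0.0359), ACADVL (0.31, SE 0.07, 0.0107), the elongase of very long chains ELOVL1 (0.18, 0.0365), CYB5R3 (0.18, 0.0479) and FADS3 (0.17, 0.047) were higher. ME1 (−0.29, 0.00598), NDUFAB1, the mitochondrial acyl carrier protein (−0.29, 0.00616), the elongation dehydratase HACD3 (−0.21, 0.0169), IDH1 and MBTPS2 (−0.21, 0.0284) were lower. The calls of ACACB, ELOVL1 and FADS3 ended with the offset (adjusted p = 0.207, 0.441 and 0.799), as did those of IDH1 and MBTPS2 (0.0695 and 0.202), and CYB5R3 changed sign there (−0.011, 0.897). ACADVL (0.13), ME1 (−0.17) and HACD3 (−0.13) were still called there with smaller values. With a library left out, the calls of ELOVL1, CYB5R3 and FADS3 ended in 8 of 12 fits each, that of ACACB in 5, those of HACD3, IDH1 and MBTPS2 in 4 each, that of ACADVL in 2 and that of ME1 in 1. In BITC+ZA against ZA, IDH1, INSIG1 (−0.21, 0.0108) and ACSL5 (−0.17, 0.0481) were lower and none higher, beside 6.95% of all genes called, and in the interaction NDUFAB1 (−0.35, SE 0.09, 0.0375) was the gene called, beside 2.84% of all genes. These calls of IDH1, INSIG1, ACSL5 and NDUFAB1 ended in 3, 1, 10 and 8 of 12 fits with a library left out.

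The authors' deposited tables, made with their own normalization within each pair of groups, had an adjusted p below 0.05 for 5 of the 9 in BITC against vehicle (ACLY, ACACA, FASN, SCD and FADS2), 1 in ZA against vehicle (ACACA) and 3 in BITC+ZA against vehicle (ACACA, SCD and ELOVL6). In the authors' deposited tables these comparisons called 3.72, 0.395 and 6.76% of the genes listed. Between the treatments the authors' deposited tables called 4 in BITC+ZA against BITC (ACLY, FASN, SCD and ELOVL6), 0 in BITC+ZA against ZA, where SCD had an adjusted p of 0.0542, and 1 in ZA against BITC (SCD). In the authors' deposited tables these comparisons called 11.6, 1.59 and 2.4% of the genes listed.

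The 5 other genes whose log2 CPM over the 12 libraries followed the mean of the 9 genes, each scaled to the same spread, most closely were TNS3 (Pearson r = 0.937), JADE2 (0.926), EXT1 (0.917), ERGIC1 (0.907) and GPR161 (0.904). Among the 9 themselves the correlation with this mean ran from −0.146 for ELOVL5 to 0.873 for SCD. Each of the 9 is itself part of the mean, so these values cannot be set beside those of the other genes. The libraries share their treatment groups, and these values describe likeness over 12 libraries only.

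**Figure D5:**
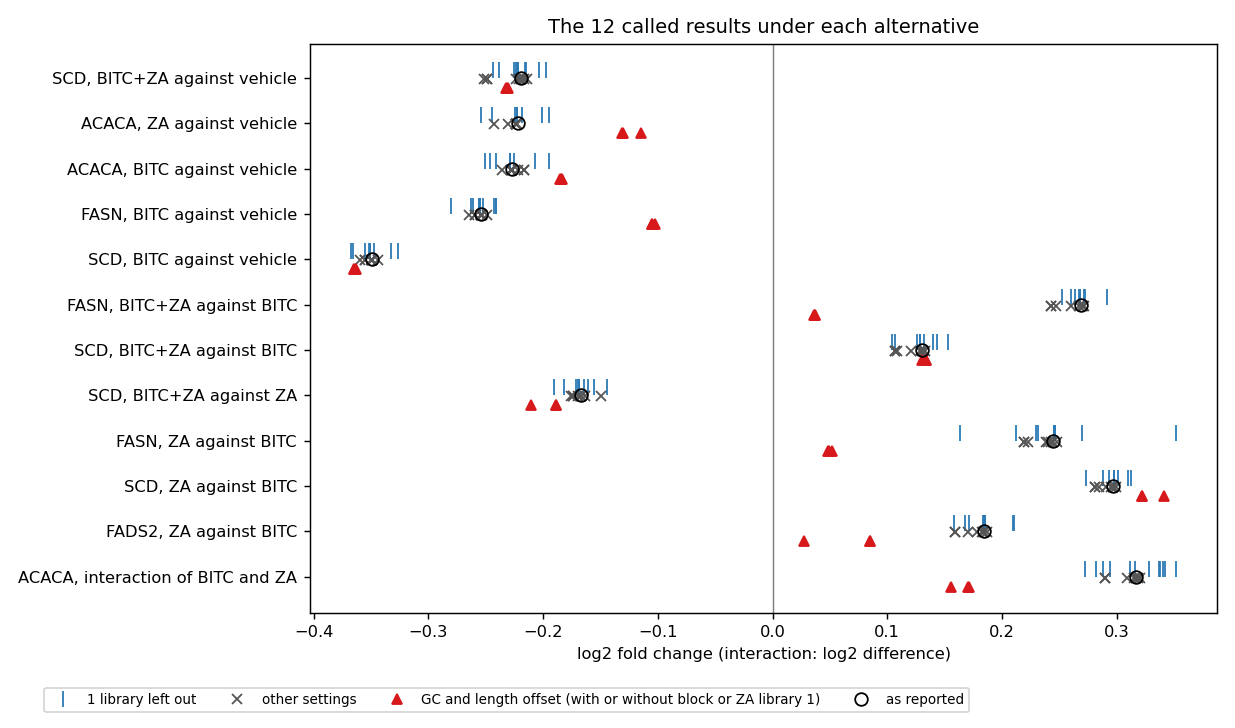
Log2 value (x axis) of each of the 12 calls among the 9 genes as reported (circles), with 1 library left out (blue ticks), with a GC and length offset (red triangles) and under the other settings (crosses). All values of a row keep their sign, and the offset brings FASN in BITC+ZA against BITC to 0.04 while SCD in BITC against vehicle stays at −0.36.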

How the data were processed

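RNA-seq of 12 MDA-MB-231 libraries in 4 groups of 3 was analysed. Per the file headers, the deposited tables hold raw read counts per gene and library, the FPKM computed by the authors, and the log2 fold changes and p-values of the authors' 6 comparisons. HISAT2, DESeq2 1.20.0 and GRCh38 are named per the submitters' processing notes, and the sources used here give no counter, annotation release or strand setting. The 6 count tables were joined to 27412 genes, with 0 conflicting counts between tables; 4593 values of genes missing from a table were entered as 0. Library totals ran from 15874857 to 17375664 counts, and the SE and p-values also reflect the spread between the libraries of a group.

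Counts were tested with edgeR 4.0.16 (R 4.3.3, filterByExpr, TMM, quasi-likelihood test, all 4 groups in one model, Benjamini-Hochberg adjustment over 14950 genes, threshold 0.05). The SE of an edgeR value is its absolute size divided by the square root of the test's F statistic. The scripts were tested on simulated data. Alternatives were DESeq2 1.42.0, limma 3.58.1 on log2(FPKM + 1) or log2(FPKM + 0.1), RLE scaling, no filter, only the groups compared, a replicate block, a GC and length offset, and leaving out each library. Deviations of same-numbered libraries were little correlated across groups. Ratios were tested with scipy 1.17.1 on Python 3.11.15. The text names the 9 genes, each listed pathway gene called in a comparison, and the 5 genes most like the 9. The 9 genes and the lists were chosen with earlier results of these data known.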

Additional observations from a re-analysis of the deposited data

Results flagged for a closer look

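One result was singled out, because the effect of a compound was tested to differ between the presence and absence of the other. The effect of ZA on ACACA was −0.22 (log2) in cells without BITC and 0.09 in cells with BITC, a difference of 0.317 (SE 0.08, edgeR's quasi-likelihood test of the interaction, adjusted p = 0.0233). On its own, the −0.22 was called by edgeR (adjusted p = 0.0372), but not with the GC and length offset (−0.13, 0.091), and the call was sensitive to single libraries. The 0.09 was not called (adjusted p = 0.236), and was 0.04 with the offset (0.614). The interaction value was above 0 in each fit with a library left out. The call ended in 4 of the 12 such fits, without vehicle library 1 or 2 (adjusted p = 0.0693 and 0.0852), BITC library 1 (0.0989) or BITC+ZA library 3 (0.0996), and with the GC and length offset, where the value was 0.17 (adjusted p = 0.0875). It also ended with block and offset (0.0934) and with the offset without ZA library 1 (0.109). limma did not call it with a pseudocount of 1 (0.102), of 0.1 (0.101) or without a filter (0.216). The call held with DESeq2 (0.00352), RLE scaling (0.0218), edgeR without a filter (0.0115) and the replicate block (0.015). The level was lower than every vehicle library in all 6 libraries given 1 compound and in 2 of the 3 given both.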

How the results depend on the processing

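SCD kept its direction and its call in BITC against vehicle, BITC+ZA against vehicle and ZA against BITC in each fit with a library left out and under the offset. None of the 12 calls among the 9 genes changed sign. Of the 63 values of the 9 genes, 21 did under some setting, each with a size of at most 0.11 as reported, and of the 33 calls among the other pathway genes, CYB5R3 did. Of these 33 calls, 5 held with each library left out and 12 ended with the offset.

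With 1 library left out, the number of the 9 genes called ran from 1 to 3 in BITC+ZA against vehicle, 0 to 2 in ZA against vehicle, 1 to 5 in BITC against vehicle, 0 to 4 in BITC+ZA against BITC, 0 to 2 in BITC+ZA against ZA, 1 to 5 in ZA against BITC and 0 to 3 in the interaction. Of the 15234 to 15301 genes tested, the same fits called 288 to 2234, 1 to 2489, 102 to 1496, 525 to 4116, 367 to 1940, 380 to 4525 and 96 to 921, in that order. Fits on only the groups compared called 3, 0, 5, 4, 0 and 1 of the 9 in the first 6 of these comparisons. They called 2793, 1, 1397, 3979, 229 and 181 of the 14242 to 14426 genes tested. With the offset 4, 0, 4, 2, 2 and 1 were called, and 1 in the interaction. With ZA library 1 left out as well, an alternative chosen after seeing the data, the numbers were 4, 0, 4, 2, 2, 1 and 1. Of all 15271 genes tested that setting called 2101, 936, 1200, 2497, 1962, 2533 and 775. limma on log2(FPKM + 1) or log2(FPKM + 0.1) called 1, 0, 1, 1, 1, 1 and 0 of the 9. Of all 14950 genes tested it called 629, 1, 126, 1563, 602, 767 and 14 with a pseudocount of 1. With 0.1 it called 602, 1, 127, 1545, 603, 772 and 14. Without a filter limma called 1, 0, 1, 0, 0, 1 and 0 of the 9, beside 257, 2, 56, 45, 175, 88 and 1 of 30225 genes. Where 0 were called, 1 to 4 of the 9 had an unadjusted p below 0.05, and DESeq2 called 1 in ZA against vehicle, 2 in BITC+ZA against BITC, 1 in BITC+ZA against ZA and 3 in the interaction. Over all genes DESeq2 called 460 of 7748, 2265 of 12000, 1128 of 9874 and 719 of 8811 in these comparisons, in that order. edgeR without a filter called 2 in the interaction and 1 in BITC+ZA against BITC, beside 706 and 2469 of 27412 genes.

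Same-numbered libraries were little correlated across groups: 18 correlations of same-numbered deviations lay between −0.0668 and 0.0653. Whether they share a day or plating is not stated, and low correlations cannot settle it. With the replicate block 2 of the 9 were called in the interaction and 3 in BITC+ZA against BITC, and with block and offset 3 in BITC+ZA against vehicle, 0 in ZA against vehicle, 3 in BITC against vehicle, where FASN (−0.10, adjusted p = 0.0576) was no longer called, 2 in BITC+ZA against ZA and 1 in ZA against BITC. Over all 14950 genes the block called 842, 219 and 315 in BITC+ZA, ZA and BITC against vehicle, where 732, 159 and 266 were called without it. In BITC+ZA against BITC it called 2533, against 2205 without it, and in the interaction 563, against 425. With block and offset, of 14946 genes, 1437, 300 and 578 were called in BITC+ZA, ZA and BITC against vehicle. In BITC+ZA against ZA 1773 were called there, and in ZA against BITC 1379.

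The signs that changed are given next, with the value as reported last. Under the GC and length offset, the block with the offset, and the offset without ZA library 1, in that order, the log2 values changed sign as follows. In BITC+ZA against vehicle FADS1 had −0.010, −0.00999 and −0.011, against 0.00625 as reported, and FASN had −0.068, −0.068 and −0.066, against 0.015 as reported. In BITC against vehicle ELOVL5 had −0.031, −0.031 and −0.033, against 0.029 as reported, FADS1 had 0.021, 0.022 and 0.021, against −0.023 as reported, and ELOVL6 had −0.033, −0.033 and −0.032, against 0.000854 as reported. In BITC+ZA against BITC ELOVL5 had 0.028, 0.028 and 0.027, against −0.069 as reported, FADS2 had −0.13, −0.13 and −0.14, against 0.063 as reported, FADS1 had −0.032, −0.032 and −0.032, against 0.030 as reported, and CYB5R3 had −0.011, −0.011 and −0.015, against 0.18 as reported. In BITC+ZA against ZA FASN had −0.012, −0.012 and −0.016, against 0.024 as reported, and ACACA had −0.014, −0.013 and −0.030, against 0.090 as reported. In ZA against BITC ELOVL5 had 0.037, 0.037 and 0.087, against −0.022 as reported. In the interaction ACSS2 had −0.069, −0.069 and −0.017, against 0.025 as reported, FADS2 had −0.18, −0.18 and −0.13, against 0.022 as reported, and FADS1 had −0.020, −0.020 and −0.00514, against 0.11 as reported. FADS2 in ZA against vehicle had −0.00692 under the last of these only, against 0.041 as reported. ACLY in BITC+ZA against ZA had −0.037 under the last of these only, against 0.038 as reported. ELOVL6 in ZA against BITC had 0.013 and 0.013 under the first 2 of these, against −0.078 as reported. ELOVL5 in the interaction had 0.022 and 0.022 under the first 2 of these, against −0.077 as reported. Under limma on log2(FPKM + 1), log2(FPKM + 0.1) and without a filter they were −0.024, −0.026 and −0.024 for FADS1 in BITC+ZA against vehicle, against 0.00625 as reported, and −0.017, −0.017 and −0.017 for FASN in BITC+ZA against vehicle, against 0.015 as reported. The same settings gave −0.015, −0.015 and −0.015 for ELOVL5 in ZA against vehicle, against 0.00742 as reported, and −0.010, −0.011 and −0.010 for ELOVL6 in BITC against vehicle, against 0.000854 as reported, and −0.00674, −0.00737 and −0.00674 for ACACA in ZA against BITC, against 0.00499 as reported. Without a filter on counts ACACA in ZA against BITC had −0.00117, against 0.00499 as reported. In the fit on only the groups compared ELOVL5 in ZA against vehicle had −0.000899, against 0.00742 as reported. With 1 library left out, ACACA in ZA against BITC ran from −0.029 to 0.033, ACLY in BITC+ZA against ZA ran from −0.027 to 0.079, ACSS2 in the interaction ran from −0.018 to 0.077 and ELOVL5 in ZA against vehicle ran from −0.00805 to 0.017. Over the same fits ELOVL6 in BITC against vehicle ran from −0.030 to 0.035, FADS1 in BITC+ZA against vehicle ran from −0.021 to 0.028, FADS2 in the interaction ran from −0.00451 to 0.049, FASN in BITC+ZA against ZA ran from −0.085 to 0.11 and FASN in ZA against vehicle ran from −0.088 to 0.096. Of the 18 differences of ratios, 3 changed sign under the offset, an alternative chosen after seeing the data: SCD over FASN had 0.097 in BITC+ZA against BITC, against −0.14 as reported, and 0.014 in ZA against vehicle, against −0.034 as reported, and FADS1 over FADS2 had 0.10 in BITC+ZA against BITC, against −0.034 as reported. The cause of these changes was not tested.

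Over all genes, the counts that moved by more than 1.5 times were these, against 732 in BITC+ZA against vehicle, 159 in ZA against vehicle, 266 in BITC against vehicle, 2205 in BITC+ZA against BITC, 1039 in BITC+ZA against ZA, 1577 in ZA against BITC and 425 in the interaction. DESeq2 called 460 in ZA against vehicle and 719 in the interaction, and edgeR without a filter 395 and 706 there and 494 in BITC against vehicle. The offset gave 1488 in BITC+ZA against vehicle, 338 in ZA against vehicle, 606 in BITC against vehicle, 1850 in BITC+ZA against ZA and 764 in the interaction, and with the block added 1437, 300, 578, 1773 and 714. The offset without ZA library 1 gave 2101, 936, 1200, 1962 and 775, and 2533 in ZA against BITC. Fits on only the groups compared gave 2793, 1, 1397, 3979, 229 and 181 in the first 6 comparisons. limma gave 1 in ZA against vehicle, 126 in BITC against vehicle, 602 in BITC+ZA against ZA, 767 in ZA against BITC and 14 in the interaction with a pseudocount of 1, and 1, 127, 603, 772 and 14 with 0.1. Without a filter limma gave 257, 2, 56, 45, 175, 88 and 1. With 1 library left out the counts ran from 288 to 2234, 1 to 2489, 102 to 1496, 525 to 4116, 367 to 1940, 380 to 4525 and 96 to 921. ACSS2 had the fewest counts of the 9, down to 664 in a library, and the largest SE, so small changes were hardest to detect in it. The GC trend differed between the groups, and its part in the results cannot be told apart from the treatments by these libraries.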
